A study of Mus musculus with 4 samples.

Results

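Igfbp5, the insulin-like growth factor binding protein 5 gene, had the highest normalized count of all genes in replicate 1 of the cultures labelled Tet1 KO, and that value is why this family was examined. Together with it, 9 further genes of the insulin-like growth factor (IGF) system were taken by name, which makes 10 of the 25393 genes listed. They are the binding protein genes Igfbp2, Igfbp3, Igfbp4, Igfbp5, Igfbp6 and Igfbp7, the ligand gene Igf1, the receptor genes Igf1r and Insr, and the adaptor gene Irs1. Because the level of Igfbp5 in that library made the choice, its 4 values are given as a description without a test. A fit that left that library out gave only the size of the Igfbp5 difference. The other 9 genes were compared over all 4 libraries. All 10 passed the filter of a mean of at least 1 normalized count.

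The cells were primary astrocytes from the cortex and hippocampus of C57BL/6 pups at postnatal day 1, grown untreated. One group was wild type (WT) and the other carried the genotype tet1-/-, a deletion present in every cell of the animal and not in astrocytes alone. Each isolation pooled 2 mice, the cells grew for about 7 days, were shaken at 260 rpm and were collected 24 h later, and RNA-seq was done on 2 libraries of each genotype. The labels give no more than a replicate number, so p-values measure the spread between these libraries, and with 2 against 2 the smallest two-sided p an exact permutation test can reach for 1 gene is 0.33.

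IGF1, IGF2 and insulin bind the receptor tyrosine kinases IGF1R and INSR, which phosphorylate the adaptors IRS1 and IRS2 and so switch on PI3 kinase, Akt and the TOR branch, while Akt holds FoxO transcription factors outside the nucleus. IGFBPs are secreted proteins that bind IGFs in the extracellular space, where they keep the ligand from its receptor or store and deliver it, and proteases such as PAPP-A cut them and free the ligand. Astrocytes are known to secrete several IGFBPs, whereas microglia are a known source of IGF1 in the developing brain.

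Values are normalized counts, reads divided by 1 size factor per library, and FPKM, reads scaled to gene length and library total, where levels of different genes are compared. Reads on genes numbered 18749610 to 22673555 per library, and the floor of 3 reads, under which a gene was not taken as detected, was worth 2.70 to 3.21 normalized counts. Tet1, the deleted gene, stood at 266 and 121 normalized counts in WT, 173 in replicate 1 labelled KO and 463 in replicate 2. It was therefore not lower under the KO label, a count per gene does not separate deleted from intact transcripts, and the groups are called the libraries labelled KO. These libraries also stood apart from each other. In replicate 1 labelled KO, 4 Y-linked genes summed to 0 normalized counts beside 2896 of Xist, the RNA of the inactive X chromosome. Replicate 2 labelled KO held 830 of the Y-linked genes together with 13367 of Xist, and the WT libraries held 1909 to 3765 and at most 8.54. The astrocyte marker Gfap had 58004 and 67297 normalized counts in WT, 174853 in replicate 1 labelled KO and 9945 in replicate 2. All 9 astrocyte markers were detected in every library. The Xist level and the KO label cannot be told apart in these libraries, and every comparison of the labels below carries that limit.

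The levels of the genes were compared per unit of length (plot of the level of each gene). The mean FPKM over the 4 libraries was 1931 for Igfbp2, 1490 for Igfbp5, 309 for Igfbp3 and 121 for Igfbp7. It was 12.2 for Igf1r, 11.6 for Irs1, 11.3 for Igfbp4 and 8.97 for Insr, then 1.27 for Igfbp6 and 0.702 for Igf1. Igfbp2 and Igfbp5 thus stood at positions 7 and 12 of all listed genes. The mean and position of Igfbp5 include its level in replicate 1 labelled KO, which made the choice. By FPKM, Igfbp5 was at positions 9 and 8 in WT and 181 in replicate 2 labelled KO. Igfbp2, Igfbp5 and Igfbp3 exceeded Igf1r and Insr in FPKM in every library, whereas Igfbp7, at 13.1 FPKM, was below Igf1r, at 16.9, in replicate 2 labelled KO. Neighbours in this order overlapped in their ranges over the 4 libraries, except Insr, whose lowest value of 6.81 FPKM lay above the highest of Igfbp6 at 3.89. The order itself depended on the label. In both WT libraries it opened with Igfbp5, Igfbp2, Igfbp7 and Igfbp3, whereas it opened with Igfbp2, Igfbp5 and Igfbp3 in replicate 1 labelled KO and with Igfbp2, Igfbp3 and Igfbp5 in replicate 2.

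**Figure D1:**
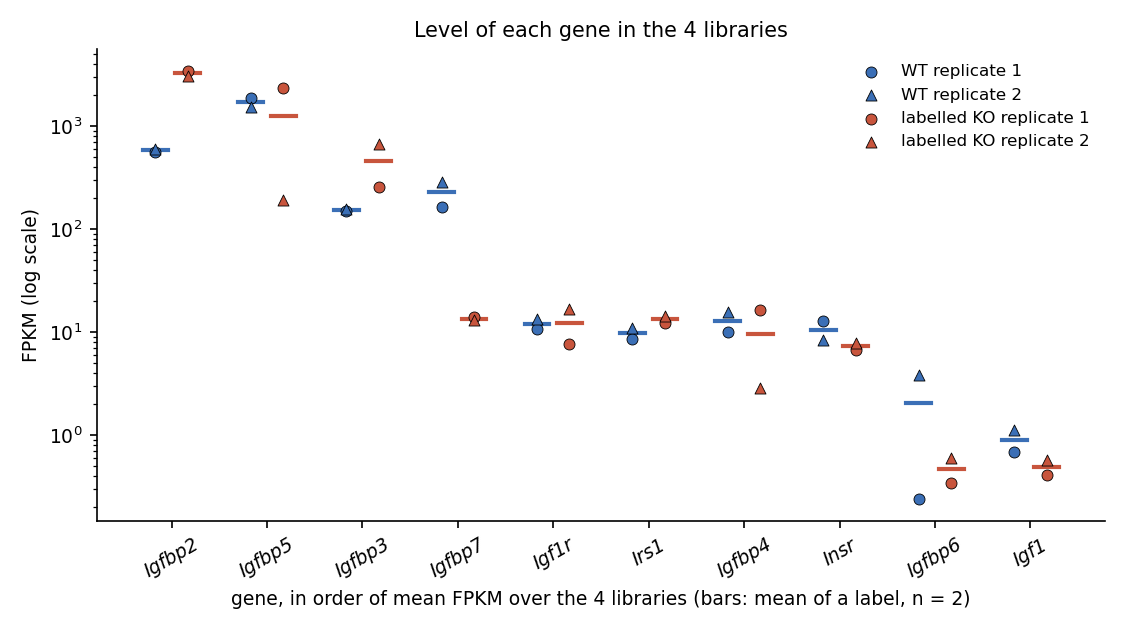
Level of each of the 10 genes in FPKM on a log axis, ordered by the mean over libraries, with blue points for WT, red points for the libraries labelled KO, circles for replicate 1 and triangles for replicate 2. The points of Igfbp2 and Igfbp7 separate by label, and replicate 2 labelled KO lies far below the other 3 libraries for Igfbp5 and Igfbp4.

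Igfbp5 and Igfbp2, the most abundant members, are neighbours on chromosome 1. On GRCm38, Igfbp2 (ENSMUSG00000039323) spans chr1:72824503-72852474 on the plus strand and Igfbp5 (ENSMUSG00000026185) spans chr1:72857932-72874884 on the minus strand. Their 3′ ends face each other across 5457 bases, with 0 annotated genes between. Igfbp7 (ENSMUSG00000036256), which had the largest difference between labels among the 9 genes tested, spans chr5:77349240-77408041 on the minus strand. The promoter windows of these 3 genes are shown because their transcripts carry most of the differences below and because TET1 acts on methylated CG dinucleotides. Each window runs from 250 bases before to 50 bases after the RefSeq transcription start, is written 5′ to 3′ along the strand of the gene, and has every CG in capitals. The windows are chr1:72824230-72824529 for Igfbp2, chr1:72874816-72875115 for Igfbp5 and chr5:77407996-77408295 for Igfbp7, on GRCm38.p6.
Igfbp2: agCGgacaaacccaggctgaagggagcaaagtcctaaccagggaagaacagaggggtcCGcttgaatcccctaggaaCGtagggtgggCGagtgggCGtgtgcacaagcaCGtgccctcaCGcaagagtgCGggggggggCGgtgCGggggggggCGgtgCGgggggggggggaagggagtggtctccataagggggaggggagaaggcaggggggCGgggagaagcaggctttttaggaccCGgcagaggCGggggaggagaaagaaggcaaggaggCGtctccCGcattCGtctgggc
Igfbp5: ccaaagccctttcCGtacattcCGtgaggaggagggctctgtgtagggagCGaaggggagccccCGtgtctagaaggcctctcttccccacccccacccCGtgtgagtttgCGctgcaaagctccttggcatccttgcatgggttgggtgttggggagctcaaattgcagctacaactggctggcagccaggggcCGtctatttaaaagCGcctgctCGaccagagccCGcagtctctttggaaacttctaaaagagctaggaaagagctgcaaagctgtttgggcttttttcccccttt
Igfbp7: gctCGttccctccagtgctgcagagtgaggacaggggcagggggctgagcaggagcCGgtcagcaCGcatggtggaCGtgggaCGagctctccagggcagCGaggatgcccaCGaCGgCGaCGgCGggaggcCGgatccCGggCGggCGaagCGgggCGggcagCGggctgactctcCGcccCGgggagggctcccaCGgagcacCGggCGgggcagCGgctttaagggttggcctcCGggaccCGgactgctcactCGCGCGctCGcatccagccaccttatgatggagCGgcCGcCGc

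The neighbours differed in these letters. The Igfbp5 window held 10 CG and the Igfbp2 window 18, beside a median of 7 over 32851 RefSeq windows of the same length, and 56.5% and 70.3% of those windows held fewer. The Igfbp7 window held 33 CG, more than 91.4% of windows. Searched on both strands, the GC box GGGCGG occurred 3 times in the Igfbp2 window and 4 times in the Igfbp7 window but not in that of Igfbp5, and 35.7% of all windows held it. The E-box CACGTG occurred 1 time in the Igfbp2 window (7.15% of all windows), and TATAAA (13.6% of all windows) and the FoxO motif GTAAACA (3.65%) in none of these 3. The E-box of Igfbp2 shares no base with a GC box. Of the other genes, Igf1r had 48 CG, Igfbp3 37, Irs1 28, Igfbp4 27, Igfbp6 8 and Igf1 6. DNA methylation and hydroxymethylation were not analysed here, so these counts describe the sequence only.

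Igfbp5 encodes a binding protein that also attaches to the extracellular matrix. It stood at 225710 and 193019 normalized counts in WT, 312185 in replicate 1 labelled KO and 23583 in replicate 2 labelled KO. Replicate 2 was thus the low library and the other 3 lay close together, with the WT values between those of the libraries labelled KO. The libraries labelled KO differed 13.2-fold from each other and the WT libraries 1.17-fold. Igfbp5 was the gene with the second highest count in both WT libraries and position 58 in replicate 2 labelled KO. Relative to the WT mean of 209364 ± 23116 (SD, n = 2), replicate 1 labelled KO was 1.49-fold higher and replicate 2 8.88-fold lower. The value of replicate 1 labelled KO made the choice, so its place above WT and its distance from replicate 2 are described only.

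Without replicate 1 labelled KO, the log2 difference of Igfbp5 between replicate 2 and WT was −3.15 in limma. With 1 library left under the KO label its spread cannot be measured, so no p-value is given. The difference was −3.13 with scaling to equal sums, −2.96 with quantile normalization, and −3.12 with edgeR and with DESeq2. Cell type markers also differed in this library. The summed FPKM of 9 astrocyte markers was 1490 and 1434 in WT, 2570 in replicate 1 labelled KO and 380 in replicate 2. Gfap alone made up 687, 765, 1871 and 117 of these. The sum of 10 meningeal fibroblast markers was 308, 180, 137 and 36.5 in the same order, of which Islr alone made up 238, 150, 115 and 10.8. Of the astrocyte markers, 5 were lower without overlap under the KO label and 1, Gja1, higher. Of the fibroblast markers, 5 were lower and 1, Col1a2, higher. Among all genes 25.4% were lower and 22.5% higher without overlap. The sum of the 7 mural markers was highest in replicate 2 labelled KO. It was 78.6 and 267 in WT, 586 in replicate 1 labelled KO and 1409 in replicate 2, of which Acta2, a smooth muscle actin, made up 1395 FPKM. The part of any of these cell types in the low Igfbp5 value was not tested, and in bulk RNA fewer cells of a type and less RNA per cell cannot be told apart.

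The genes whose pattern over the 4 libraries was most like that of Igfbp5 were found by the root mean square difference of log2 values centred on each gene's own mean. Among 12867 genes with a mean of at least 50 normalized counts, the median of this difference was 1.53. The closest were Fmod, which encodes the matrix proteoglycan fibromodulin (0.0391), Atp1b2, a sodium pump subunit (0.0770), the unnamed locus Gm29157 (0.115), Slc38a3, a glutamine transporter (0.145), and Map3k21, a kinase (0.147). Fmod had 20559 and 16510 normalized counts in WT, 27279 in replicate 1 labelled KO and 2004 in replicate 2. Within the family, Igfbp4 was the closest, at position 184 with 0.555, and Igfbp2 was at position 12130 with 2.26, although it is the genomic neighbour of Igfbp5. Of the astrocyte markers, Gfap was at position 81 with 0.409 and Aldoc at 89 with 0.424, both closer than Igfbp4, and Sox9 at 1001 with 0.962. The likeness rests on 4 points from libraries that share their depth and cell make-up between genes. Among the points is the Igfbp5 level of replicate 1 labelled KO, which made the choice.

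Igfbp2 encodes the binding protein that is abundant in the developing brain and in glia. It had 20948 and 23328 normalized counts in WT, against 142211 and 114694 in replicates 1 and 2 labelled KO. The groups did not overlap, and unlike Igfbp5 the libraries of a label were close, 1.11-fold apart in WT and 1.24-fold under the KO label. The WT mean was 22138 ± 1683, against 128453 ± 19458 under the KO label (SD, n = 2 each), 5.80-fold higher. In FPKM it was 586 ± 27.5 in WT and 3275 ± 282 under the KO label (SD, n = 2 each), which put Igfbp2 at positions 2 and 3 of all genes in the libraries labelled KO. The log2 difference was 2.53 (SE 0.38, 95% interval 1.59 to 3.48). The unadjusted p was 0.000807 and the adjusted p 0.129 from limma (Benjamini-Hochberg, as for all adjusted p-values here). The log2 difference was 2.38 to 2.69 when any 1 library was left out. DESeq2 on the recovered reads called it higher (adjusted p = 3.60e-07), and edgeR did not (adjusted p = 0.179).

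Igfbp7 encodes a secreted protein that resembles the IGFBPs, binds IGFs weakly and is best known from vessels. It had 4025 and 7346 normalized counts in WT, against 378 and 320 in replicates 1 and 2 labelled KO. The groups were far apart, with every WT value more than 10 times every value under the KO label. The WT mean was 5686 ± 2349, against 349 ± 40.9 under the KO label (SD, n = 2 each), 16.3-fold lower. The log2 difference was −3.96 (SE 0.38, 95% interval −4.93 to −3.00, adjusted p = 0.0777 from limma), and −4.40 to −3.53 when any 1 library was left out. DESeq2 called it lower (adjusted p = 1.50e-12), and edgeR gave an adjusted p of 0.0843. Igfbp7 overlaps Polr2b and the antisense locus Gm34648 on the other strand, and whether the reads were counted by strand is not given in the sources used here. The 5 endothelial markers measured summed to 0.551 to 1.45 FPKM in the 4 libraries, beside 13.1 to 291 FPKM of Igfbp7. Of the 7 mural cell markers measured, Myh11 and Rgs5 were lower without overlap under the KO label, the direction of Igfbp7, and Acta2 was higher. Microglial markers moved in the same direction as Igfbp7. The 10 markers summed to 51.9 and 69.6 FPKM in WT, against 22.8 and 11.0 in the libraries labelled KO. Of these, 9 of 10 were lower without overlap, where 25.4% of all genes were lower and 22.5% higher. The median log2 difference of the 10 markers was −3.17, beside −0.07 for all genes. The part of mural cells or microglia in the Igfbp7 difference was not tested.

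Igfbp3, on chr11:7206086-7213923, encodes the main carrier of IGFs in blood, which also acts on cells directly. It had 9416 and 10337 normalized counts in WT, 17711 in replicate 1 labelled KO and 42471 in replicate 2 labelled KO. Both libraries labelled KO lay above both WT libraries, but they differed 2.40-fold from each other. The mean was 3.05-fold higher under the KO label. The log2 difference was 1.47 (SE 0.49, 95% interval 0.24 to 2.71, adjusted p = 0.314 from limma), and DESeq2 gave an adjusted p of 0.0626. Without replicate 2 labelled KO the log2 difference was 0.84, and without replicate 1 it was 2.11. The 8 proliferation markers were all higher under the KO label without overlap, where 22.5% of all genes were. These markers had the same order as Igfbp3 among the libraries labelled KO. Their summed FPKM was 2.07 and 10.8 in WT, 25.3 in replicate 1 labelled KO and 49.0 in replicate 2. Acta2, with 55.6 and 240 FPKM in WT, 564 in replicate 1 labelled KO and 1395 in replicate 2, had the same order. Of the 7 mural markers measured, only Acta2 was higher without overlap, whereas Myh11 and Rgs5 were lower and 4 overlapped. The part of proliferating cells or mural cells in the Igfbp3 difference was not tested. Nor was it tested for Igfbp2, which had the opposite order among the libraries labelled KO.

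Igfbp4 and Igfbp6, the sparser binding protein genes, overlapped between the labels. Igfbp4, on chr11:99041244-99054392, encodes the binding protein that PAPP-A cuts, and had 899 and 1445 normalized counts in WT, 1596 in replicate 1 labelled KO and 259 in replicate 2 labelled KO. As for Igfbp5, replicate 2 was the low library, 6.15-fold below replicate 1, and the log2 difference between labels was −0.83 (SE 0.87, adjusted p = 0.709 from limma) with all libraries and 0.49 without replicate 2 labelled KO. Igfbp6, on chr15:102144362-102149511, encodes a binding protein that prefers IGF2, and had 5.33 and 90.1 normalized counts in WT, against 8.56 and 13.5 under the KO label. WT replicate 2 was high and the other 3 libraries were low, and the log2 difference of −1.03 (SE 1.35, adjusted p = 0.770 from limma) became 0.90 without WT replicate 2.

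Because the binding protein genes differed in opposite directions, the make-up of their transcripts was computed from FPKM (plot of the make-up of the IGFBP transcripts). Igfbp5 made up 67.8% and 58.9% of the summed IGFBP transcripts in WT, 38.4% in replicate 1 labelled KO and 4.91% in replicate 2. Igfbp2 made up 20.4% and 23.2% in WT and 56.9% and 77.7% in replicates 1 and 2 labelled KO. The ratio of Igfbp5 to Igfbp2 in FPKM was 3.31 and 2.54 in WT, 0.675 in replicate 1 labelled KO and 0.0632 in replicate 2. Igfbp5 thus exceeded Igfbp2 in both WT libraries and in neither library labelled KO, although only 1 of the latter had a low Igfbp5 level. Igfbp7 supplied 6.00% and 11.1% in WT and 0.231% and 0.331% under the KO label, and Igfbp3 supplied 16.98% in replicate 2 labelled KO against 4.18% to 6.05% in the other libraries. The summed level was 2773 and 2617 FPKM in WT, against 6106 and 3958 in replicates 1 and 2 labelled KO. Of the 6106, 2346 came from Igfbp5, whose level in that library made the choice. The sums, shares and ratios of replicate 1 labelled KO are therefore a description without a test. As a share of all reads the 6 genes did not separate by label, with 1.30% and 1.13% in WT, 2.14% in replicate 1 labelled KO and 0.898% in replicate 2. FPKM divides by the gene length, 1847 bases for Igfbp2 and 6006 for Igfbp5, and the share of reads does not.

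**Figure D2:**
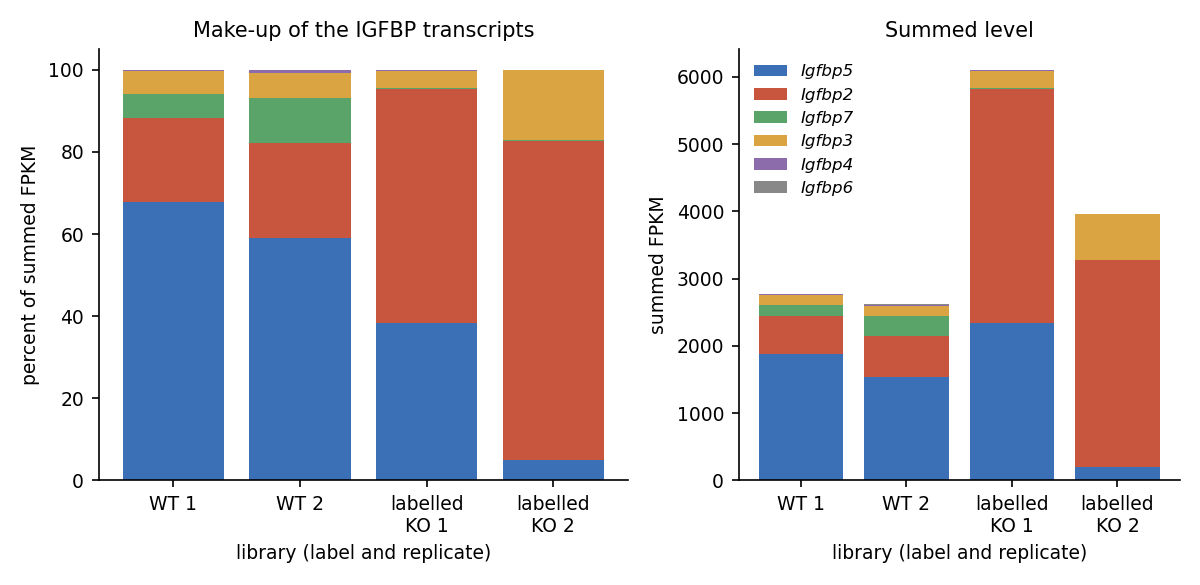
Make-up (left, percent of summed FPKM) and summed level (right, FPKM) of the transcripts of Igfbp2 to Igfbp7 in each of the 4 libraries, with 1 colour per gene. Igfbp5 makes up 67.8% and 58.9% in WT but 38.4% and 4.91% in the libraries labelled KO, where Igfbp2 makes up 56.9% and 77.7%.

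The ligand gene Igf1 had the lowest mean FPKM of the 10 genes. It lies on chr10:87858265-87937042 and had 138 and 233 normalized counts in WT, against 91.0 and 114 in replicates 1 and 2 labelled KO. The libraries labelled KO lay below WT without overlap, by a log2 difference of −0.80 (SE 0.47, 95% interval −1.98 to 0.37, adjusted p = 0.501 from limma). The microglial marker Cx3cr1 had 112 and 349 normalized counts in WT, against 23.5 and 11.7 under the KO label, and the part of microglia in the Igf1 difference was not tested. Igf1 is overlapped by the antisense gene Igf1os, Insr by Vmn2r-ps88 and Gm16180 and Irs1 by Gm9747, each on the other strand, and reads from such overlaps may not be told apart. The other ligand genes had few reads, Igf2 at 0 to 3.68 normalized counts and Ins2 at 0 in WT, 1.07 in replicate 1 labelled KO and 11.7 in replicate 2 labelled KO, the only library where it passed the floor. Transcripts of the binding proteins therefore outnumbered those of the ligands in every library, by FPKM ratios to Igf1 of 3991 and 2322 in WT, against 14730 and 6916 under the KO label. The ratio of replicate 1 labelled KO includes the Igfbp5 level that made the choice.

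Neither receptor gene of the family passed the test between labels. Igf1r, the IGF1 receptor on chr7:67952827-68233668, had 3587 and 4707 normalized counts in WT, 2890 in replicate 1 labelled KO and 5731 in replicate 2 labelled KO. The WT values lay between those of the libraries labelled KO. The log2 difference was −0.01 (SE 0.42, 95% interval −1.07 to 1.04, adjusted p = 0.993 from limma), an interval that leaves room for a 2-fold difference either way, and its sign turned with edgeR and DESeq2. Insr, the insulin receptor on chr8:3122061-3279617, had 3550 and 2391 normalized counts in WT, against 2073 and 2174 under the KO label. It was lower without overlap, by a log2 difference of −0.46 (SE 0.32, 95% interval −1.26 to 0.34, adjusted p = 0.576 from limma). Both libraries labelled KO were closer to WT replicate 2 than the WT libraries were to each other. Among other receptors, Igf2r, which clears IGF2 from the cell surface, had 1767 and 2882 normalized counts in WT, against 1684 and 3855 under the KO label, and Insrr had 0 to 5.52 in the 4 libraries.

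The adaptor gene Irs1, on chr1:82233101-82291416, had 1573 and 2081 normalized counts in WT, against 2520 and 2655 in replicates 1 and 2 labelled KO. It was higher under the KO label without overlap, by a log2 difference of 0.52 (SE 0.29, 95% interval −0.22 to 1.26, adjusted p = 0.494 from limma). Irs2, the more abundant adaptor, went the other way, with 8896 and 10658 normalized counts in WT, against 6548 and 5963 under the KO label (log2 difference −0.64, SE 0.29, adjusted p = 0.420 from limma). The FPKM ratio of Irs2 to Irs1 was 8.18 and 7.41 in WT, against 3.76 and 3.25 in the libraries labelled KO. Neither adaptor passed the test, and the ratio was not tested.

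**Figure D3:**
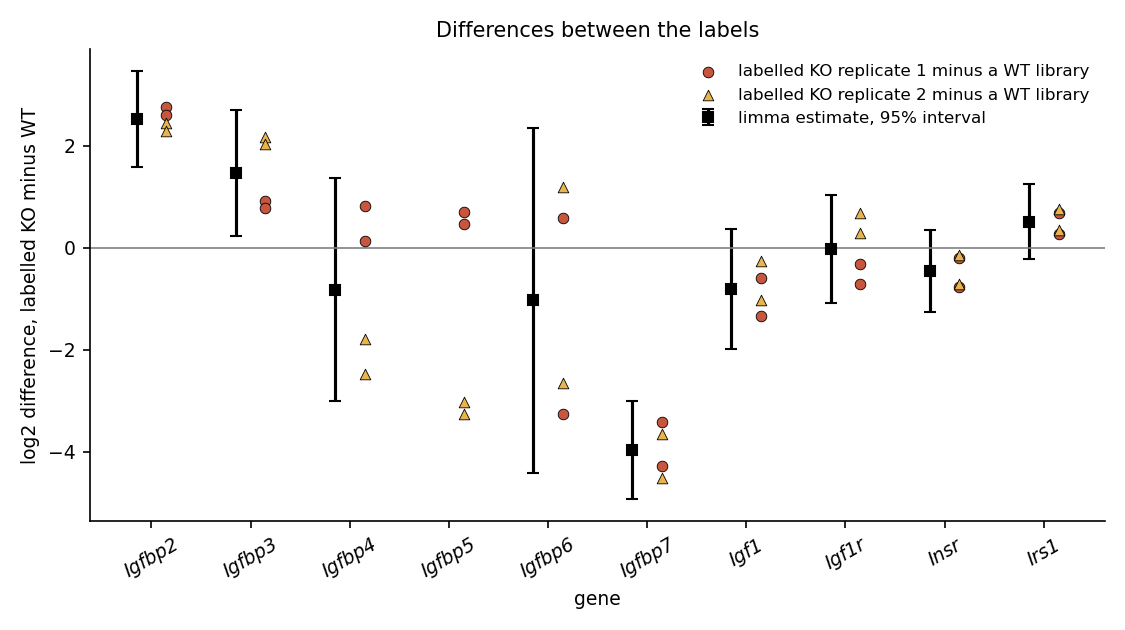
Log2 difference between the libraries labelled KO and WT for each of the 10 genes, with the limma estimate and its 95% interval as a black square (none for Igfbp5, which the choice used) and the 4 differences between single libraries as points. The intervals of Igfbp2 and Igfbp3 lie above 0 and that of Igfbp7 below 0, and the single differences of Igfbp5 run from −3.26 to 0.69.

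Across the 9 genes tested over all libraries, 0 had an adjusted p under 0.05 in limma, as had 0% of all 22094 genes tested, and edgeR also called 0. At an unadjusted p under 0.05, Igfbp2 and Igfbp3 were higher and Igfbp7 was lower in limma, 3 of 9, where 4.54% of all genes were higher, 9.18% lower and 13.7% either. Igfbp3 was not past that threshold with quantile normalization or with eBayes without a trend, each of which left 2 of 9. DESeq2 called 1 higher and 1 lower, Igfbp2 and Igfbp7. Of the 17024 genes that it gave an adjusted p, it called 1.69% higher and 4.8% lower, 6.5% in all. The groups did not overlap for Igfbp2, Igfbp3 and Irs1, which were higher, and for Igfbp7, Igf1 and Insr, which were lower. That is 6 of 9, where 22.5% of all genes were higher without overlap and 25.4% lower, 47.9% in all. The median log2 difference of the 9 was −0.46 and that of all genes −0.07. With 9 genes chosen by name, these shares describe the family and were not tested. Between the libraries labelled KO, 2 of the 8 members other than Igfbp5 with a mean of at least 50 normalized counts, Igfbp3 and Igfbp4, differed by more than 2-fold, as did 28.6% of all such genes. Igfbp5 is left out of that count because its level in one of these libraries made the choice. Between the WT libraries 0 of 9 members, Igfbp5 included, differed by more than 2-fold, as did 10.7% of all such genes.

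The rest of the pathway was read from a list of 64 genes by role, of which 54 are not among the 10 and 52 of those were listed and tested. limma called 0 of the 52 at an adjusted p under 0.05. At an unadjusted p under 0.05, Stc1, Pik3cb and Pik3r3 were higher and Pappa2, Pik3cd, Fbxo32 and Txnip lower in limma, 7 of 52 or 13.5%, close to the 13.7% of all genes. The groups did not overlap for 11 higher and 17 lower genes, 53.8% beside 47.9% of all genes. DESeq2 called Stc1 and Pik3r3 higher and Pappa2 and Pik3cd lower, 4 of 52. It gave 5 of the 52 no adjusted p, and called 6.5% of the 17024 genes that had one. As a whole the list was near the background. The genes named below are its members with the smallest p (plot of the other genes of the pathway). For roles without any, the gene of highest mean normalized count is named.

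Among the genes that control IGFBP cleavage, 2 of 5 reached an unadjusted p under 0.05 in limma, beside 13.7% of all genes. Stc1 encodes stanniocalcin, an inhibitor of the PAPP-A proteases, and had 9.60 and 9.20 normalized counts in WT, against 204 and 106 in replicates 1 and 2 labelled KO. It was 16.5-fold higher in the mean without overlap, with a log2 difference of 3.84 (SE 0.61, adjusted p = 0.142 from limma and 4.06e-06 from DESeq2). Pappa2 encodes a protease that cuts IGFBP3 and IGFBP5, and had 71.5 and 348 normalized counts in WT, against 43.9 and 25.2 under the KO label. It was lower without overlap, with a log2 difference of −2.21 (SE 0.86, adjusted p = 0.360 from limma and 0.0367 from DESeq2), although the WT libraries differed more from each other than WT replicate 1 did from the libraries labelled KO. Without WT replicate 2 the log2 difference of Pappa2 was −1.08, whereas that of Stc1 was 3.37 to 4.30 when any 1 library was left out. Of the 3 other genes of this role, Pappa and Stc2 overlapped between labels, and Htra1, a secreted serine protease, had 2441 and 1798 normalized counts in WT, 8440 in replicate 1 labelled KO and 2467 in replicate 2. Other binding proteins were Igfbpl1, with 554 and 1305 normalized counts in WT, against 240 and 560 under the KO label, and Igfals, the subunit of the IGF complex in blood, with 0.901 to 6.44 in the 4 libraries.

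Inside the cell, the PI3 kinase subunits differed in opposite directions. Pik3r3, a regulatory subunit, had 276 and 174 normalized counts in WT, against 891 and 918 in replicates 1 and 2 labelled KO (log2 difference 2.04, SE 0.37, adjusted p = 0.159 from limma and 0.00171 from DESeq2). Pik3cb, a catalytic subunit of broad expression, had 1032 and 1341 in WT, against 2360 and 3059 under the KO label (log2 difference 1.19, SE 0.31, adjusted p = 0.243 from limma). Pik3cd, the catalytic subunit of leukocytes, had 244 and 233 in WT, against 32.1 and 62.2 under the KO label (log2 difference −2.39, SE 0.51, adjusted p = 0.195 from limma and 0.00319 from DESeq2). The lower Pik3cd stood beside lower microglial markers, whose part in it was not tested. The other 8 of the 11 genes of this role did not reach an unadjusted p under 0.05 in limma.

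The TOR branch had 0 of 8 genes at an unadjusted p under 0.05 in limma and a median log2 difference of −0.01. Its gene of highest mean normalized count, though not of highest mean FPKM, was Rheb, the small GTPase that activates TOR. Rheb had 2181 and 2494 normalized counts in WT, against 3163 and 2841 under the KO label. Of the FoxO factors, Foxo3 had the highest level, with 3227 and 3663 in WT, against 4531 and 2800 under the KO label, and 0 of 4 reached an unadjusted p under 0.05. Of the genes that FoxO factors are known to switch on, all 8 had a log2 difference below 0, with a median of −0.77 beside −0.07 for all genes. As the latter median is below 0, most of all genes were below 0 too. Of the 8, 2 reached an unadjusted p under 0.05 in limma, beside 13.7% of all genes. The 8 stayed below 0 under every scaling tried, whereas without replicate 2 labelled KO 5 of 8 did, with a median of −0.25. Txnip, an inhibitor of glucose uptake, had 8957 and 10260 normalized counts in WT, 5428 in replicate 1 labelled KO and 1092 in replicate 2 (log2 difference −1.98, SE 0.76, adjusted p = 0.358 from limma, and −0.82 without replicate 2). Fbxo32, a ubiquitin ligase of muscle wasting, had 929 and 1248 in WT, 659 in replicate 1 labelled KO and 465 in replicate 2 (log2 difference −0.96, SE 0.35, adjusted p = 0.343 from limma). Bcl6, Fbxo32, Klf15 and Txnip did not overlap between labels, 4 of 8 beside 47.9% of all genes, whereas Pdk4, Sesn1, Sesn3 and Ccng2 did. In each of the 8, replicate 2 labelled KO had the lowest value of the 4 libraries. The share of all genes for which this holds was not counted. Among the Igf2 mRNA binding proteins 0 of 3 reached an unadjusted p under 0.05, and Igf2bp2, the most abundant, had 192 and 464 normalized counts in WT, against 88.8 and 217 under the KO label.

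**Figure D4:**
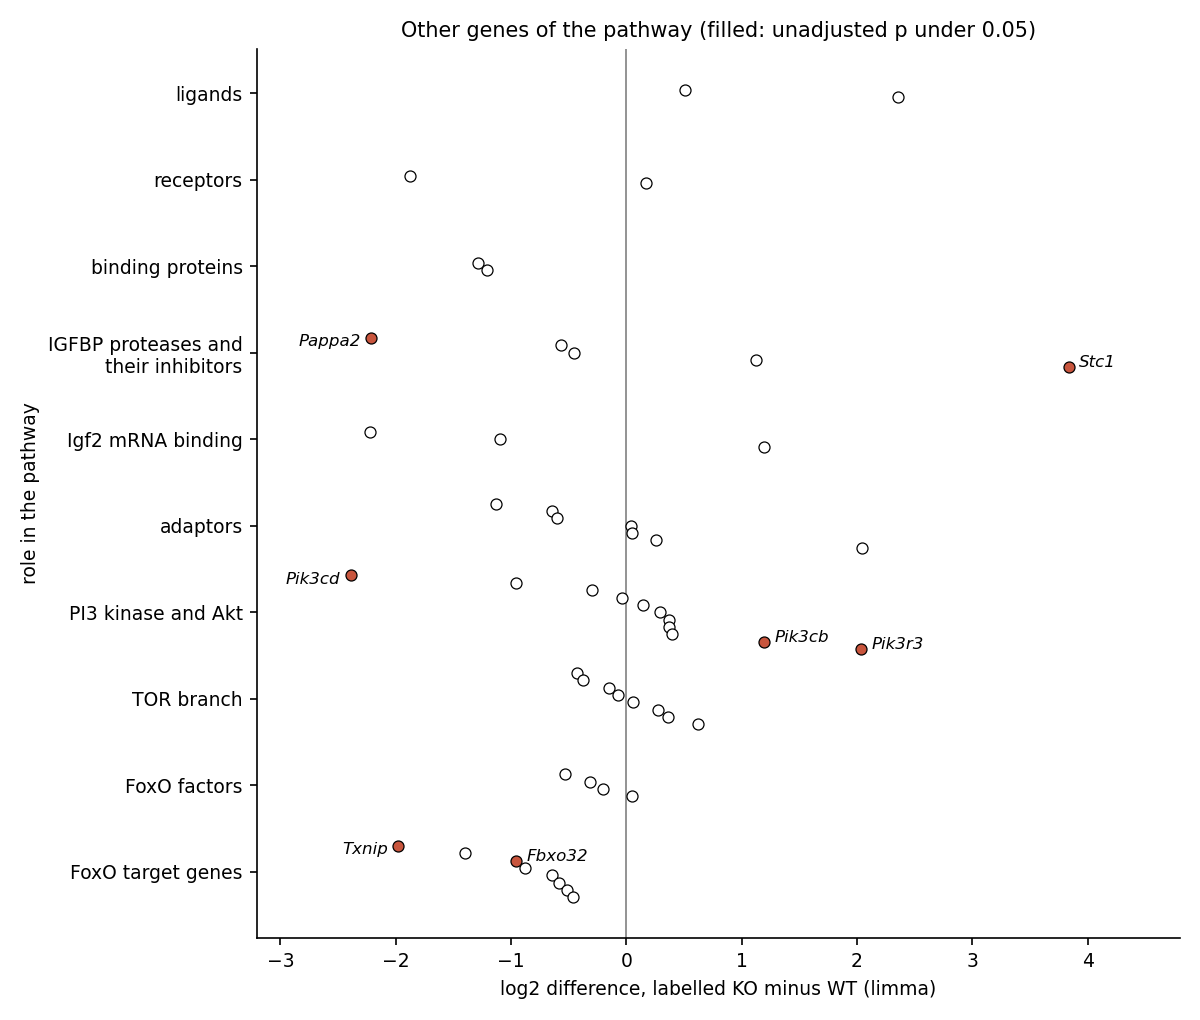
Log2 difference between the libraries labelled KO and WT (limma) for the 52 pathway genes outside the family, in rows by role, with filled points and names for an unadjusted p under 0.05. Points lie on both sides of 0 in most rows. All 8 FoxO target genes lie below 0, where the median of all genes is −0.07, and 5 of the 8 also do without replicate 2 labelled KO.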

How the data were processed

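RNA-seq of 4 primary astrocyte libraries was used, 2 WT and 2 labelled KO, grouped by the genotype in their labels. The authors aligned the reads to mm10, and the counting program is not given in the sources used here. For each gene the authors deposited a signal in each library, in a table named for FPKM. Divided by what 1 read was worth in its library, 100% of the values came out whole (tolerance 0.01 reads). They are counts divided by size factors of 0.934 to 1.11, called normalized counts here. The deposited group means, log2 fold changes and p-values were not used. Depth was 18749610 to 22673555 reads on genes, and the floor of 3 reads covers counting error only.

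Reads were recovered, and FPKM computed from them with the deposited gene lengths. Labels were compared with limma 3.58.1 (lmFit, eBayes with a trend) in R 4.3.3 on log2(normalized count + 1), which understates changes of low genes, over the 22094 genes whose mean was 1 or more, and p-values were adjusted by Benjamini-Hochberg. edgeR 4.0.16 (quasi-likelihood, TMM) and DESeq2 1.42.0 on the recovered reads were alternatives, as were other pseudocounts (0.1 and 5), mean minimums, scalings, a replicate block and leaving out each library. The fits were tested on simulated data. Promoter windows came from a RefSeq table (GRCm38.p6), which held 9 of the 10 genes, and the window nearest the annotated start was taken. Of 25393 gene identifiers, 25381 were in GENCODE M21.

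The 10 genes, the pathway list and the marker lists were chosen with earlier results of these data known. Genes named are the 10, the other ligands, receptors and binding proteins, for each other role those with an unadjusted limma p under 0.05 or else the gene of highest mean, the 5 genes most like Igfbp5, Tet1, Xist and markers. Htra1, Pappa, Stc2 and the other FoxO targets were named after their values were seen. Same-numbered libraries did not deviate together (r = −0.08 over 22094 genes), so the numbers were not taken as pairs.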

Additional observations from a re-analysis of the deposited data

How the results depend on the processing

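limma called 0 genes at an adjusted p under 0.05, with 3032 at an unadjusted p under 0.05. DESeq2 called 1106 genes, 6.5% of the 17024 with an adjusted p. Among them were 2 of the 9 family genes tested (Igfbp2 and Igfbp7) and 4 of the 52 other pathway genes. The labels give both groups replicate numbers 1 and 2, without a stated pairing. The replicate block in limma left 0 calls, 2583 genes, 3 family genes and 9 pathway genes at an unadjusted p under 0.05, and with edgeR the replicate block gave 1984 genes. The crossed pairing, tried after seeing the data because same-numbered deviations correlated at −0.11 over genes with a mean of at least 50, called 244 genes and 1 family gene. Leaving out 1 library gave 1029 to 4925 genes, 1 to 4 family genes and 4 to 15 pathway genes at an unadjusted p under 0.05. The lowest number of family genes came without WT replicate 2, and quantile normalization and eBayes without a trend each gave 2.

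Igfbp2, Igfbp3, Igfbp7, Igf1, Insr and Irs1 kept their direction in all 16 alternatives. Most of these could not have turned it. The groups of these genes did not overlap, so leaving out 1 library keeps the sign. The limma estimate is also the same under other mean minimums, without a trend and with a replicate block. On the log2 scale, Igf1r turned to 0.014 with edgeR and 0.056 with DESeq2. Leaving out 1 library, Igf1r ran from −0.51 to 0.48, Igfbp6 from −2.95 to 0.90 and Igfbp4 from −2.14 to 0.49. Igfbp5 ran from −3.15 to 0.58, and the latter rests on KO replicate 1, whose Igfbp5 level made the choice. The sign turned without WT replicate 2 for Igf1r (0.18) and Igfbp6, without KO replicate 1 for Igf1r, and without KO replicate 2 for Igfbp4. The adjusted p of Igfbp2 ran from 3.60e-07 to 0.967 and that of Igfbp7 from 1.50e-12 to 0.967. Quantile normalization moved the median log2 difference of all genes by 0.14. Without KO replicate 1, the Igfbp5 difference was −3.15 in limma, −2.96 with quantile normalization, and −3.12 with edgeR and with DESeq2. A mean minimum cannot change this difference. The order of levels from WT alone kept 2 of 10 positions. With a mean minimum of 10 in place of 50, 1 of 10 family genes differed more than 2-fold between the WT libraries. Low counts limit Igfbp6, Igf2, Ins2, Insrr and Igfals.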
